A study of Mus musculus with 8 samples.

Results

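Mature absorptive cells of the mouse cecum are the differentiated surface cells that face the cecal contents. They were taken here by rule from the single-cell profiles of cecal epithelium. Among the 6773 cecal cells with at least 500 transcripts, each cell was ranked by the share of its transcripts that came from Lypd8, Slc26a3, Ceacam20, Slc9a3 and Guca2a, and the top 20% (1355 cells) was kept. From these, 12 cells were dropped because 8 goblet cell genes (Muc2, Fcgbp, Clca1, Zg16, Tff3, Spink4, Agr2 and Reg4) made up 0.5% or more of their transcripts. This left 1343 cells, out of 15916 cells of cecum and colon. The cells were thus chosen by the measured values of these 13 genes, and their levels are description only.

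The study profiled sorted epithelium of colon and cecum from antibiotic-treated (Abx), germ-free (GF) and untreated (Ctrl) mice by split-pool single-cell RNA-seq, in which each cell is labelled by rounds of barcoding in plates. The series title concerns nicotinic acid of the microbiome and regional identity of the colon. The cecal samples fell into Abx_4D, Abx_14D, GF and Ctrl, with 4 numbered samples in each. The labels did not spell out 4D or 14D, nor did they give the antibiotics, strain, age or sex, and no allele or transgene was named. According to the protocol in the labels, cells of a condition were pooled before sorting, and EPCAM-positive, CD45-negative cells were loaded with CD44-positive and CD44-negative cells in equal parts. The proportion of differentiated cells is therefore set in part by the sort.

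Absorptive cells of the large intestine take up salt, water and short-chain fatty acids through a brush border of microvilli. They also hold microbes away with membrane mucins, surface sugars, antibacterial lectins and peroxide-producing oxidases, and many of these genes are known to respond to microbes. Type I and type III interferons act on epithelial cells through receptors whose signal ends at a promoter element named the interferon-stimulated response element. MHC class II, which shows peptides to helper T cells, is turned on in epithelium by interferon gamma through the coactivator Ciita. Metallothioneins bind zinc and copper and are switched on by the factor MTF1 at metal response elements.

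Promoter sequences are shown for genes named in the comparisons below, from sets known to share a promoter element. The windows come from RefSeq promoters of build GRCm38.p6, which reach from 250 bases before to 50 bases after a gene's start and are printed along the strand of the gene. The deposited counts were made on another build (mm39), so no coordinate of the count data is used. Capitals mark matches to the core of the interferon-stimulated response element (GAAA, any 2 bases, GAAA) on either strand, and overlapping matches run together.
Isg15, chr4:156200860-156200911, minus strand, 3 matches: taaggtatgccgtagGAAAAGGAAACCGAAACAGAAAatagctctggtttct
Ifit1, chr19:34640770-34640828, plus strand, 2 matches: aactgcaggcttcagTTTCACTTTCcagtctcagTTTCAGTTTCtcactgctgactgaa
Ifit3, chr19:34583358-34583431, plus strand, 2 matches: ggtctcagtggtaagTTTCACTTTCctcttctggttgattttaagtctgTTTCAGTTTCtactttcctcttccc
Rsad2, chr12:26456548-26456587, minus strand, 1 match: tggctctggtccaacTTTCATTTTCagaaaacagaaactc
Of 41 interferon-stimulated genes listed, 28 had a promoter in the table, and 18 of these (64.3%) held the motif, against 1079 of all 27025 genes with a promoter (3.99%). For Oasl2 the window held no match.

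For the metallothioneins Mt1 and Mt2 the capitals mark the metal response element core TGCNCNC on either strand, which is short and was present in 53.6% of all genes' promoters. Both metallothionein promoters held it, with 3 matches in Mt1 and 6 in Mt2, and so did the promoter of the zinc exporter Slc30a1, with 2 matches, a gene that passed in no comparison with Ctrl. The stretch of Mt1 that holds its matches is shown.
Mt1, chr8:94179051-94179130, plus strand, 3 matches: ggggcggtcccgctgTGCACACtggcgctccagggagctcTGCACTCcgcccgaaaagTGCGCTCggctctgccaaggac
The clock output gene Tef held the E-box CACGTG, which reads the same on both strands, in each of its annotated promoters. Of 16 clock genes with a promoter, 5 (31.2%) held it, against 8.09% of all genes, and those of Dbp and Nr1d1 did not.
Tef, chr15:81802531-81802566, plus strand, 1 match: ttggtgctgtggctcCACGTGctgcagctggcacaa
Tef, chr15:81811261-81811296, plus strand, 1 match: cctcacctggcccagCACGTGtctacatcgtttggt
A match describes letters in a window and does not show that a factor binds there.

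The cells matched their label by genes that the rule did not use. Levels are given in CPM, the count of a gene scaled to the total transcripts of the set of cells. Krt20, a keratin of differentiated surface cells, stood at 2064 CPM in the chosen cells and 39.7 CPM in the other 5430 cecal cells. The water channel Aqp8 had 207 against 4.03 CPM, and the cytochrome P450 gene Cyp2c55 had 3040 against 253 CPM. Stem cell and division genes were low, with Lgr5 at 9.41 against 302 CPM and Mki67 at 22.8 against 585 CPM. Since the marker share orders cells along maturation, these are descriptions without a test. Of 9 genes of small intestinal enterocytes, Lct, Apoa1 and Fabp6 had 0 counts in every sample used in the tests. Others were present: Alpi had 31.8 against 0.869 CPM, Mgam 242 against 541 and Slc5a1 84.9 against 142 CPM in the other cecal cells. The sum of this list ranged from 282 to 651 CPM over the tested samples, against 581 to 881 CPM in their other cells. Cd3e, Cd3g, Cd79a and Tyrobp of immune cells and Col1a1, Col1a2 and Col3a1 of stroma had 0 counts in every sample used in the tests. The summed goblet genes ranged from 86.6 to 127 CPM in Abx_4D, 67.1 to 131 in Abx_14D, 103 to 253 in GF and 96.5 to 128 CPM in Ctrl. For stem and transit-amplifying genes the sums ranged from 77.7 to 114, 73.6 to 222, 57.1 to 71.2 and 66.6 to 73.3 CPM in the same order. Enteroendocrine genes reached 169 CPM in 1 Abx_14D sample and stayed at or under 4.81 CPM in every other sample tested.

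The boundary of the rule cut a gradient. Cells just inside (the 100 nearest, marker share 0.339 to 0.394%) had 359 CPM Krt20 and 8460 CPM Car1. The 100 cells just outside (0.293 to 0.338%) had 404 CPM Krt20 and 7080 CPM Car1. The median marker share was 0.811% in the chosen cells and 0.0276% in the others. The median depth was 13207 transcripts and 3407 genes, against 14112 transcripts and 4472 genes in the other cecal cells, and the median mitochondrial share 0.684%, against 0.328%. The 20 cells with more than 100000 transcripts (up to 532444) held 15.8% of all transcripts of the chosen cells. No barcode with its sublibrary tag was shared, and each of the 21 first-round wells of the plate held 1 sample.

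Numbers of mature cells differed widely between samples of a group. Abx_4D held 19, 12, 36 and 118 cells in samples 1 to 4, Abx_14D held 22, 62, 349 and 156, GF held 22, 65, 116 and 117, and Ctrl held 9, 23, 116 and 101. They made up 10.4% ± 7.23 of the cecal cells in Abx_4D, 22.0% ± 13.7 in Abx_14D, 19.3% ± 10.9 in GF and 15.9% ± 11.1 in Ctrl (SD, n = 4 each). The ranges of all groups overlapped. Because the rule used these values, and the sort sets the balance of cells, no test was made. The sublibraries gave a narrow range, from 18.6 to 21.6% of their cecal cells.

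**Figure D1:**
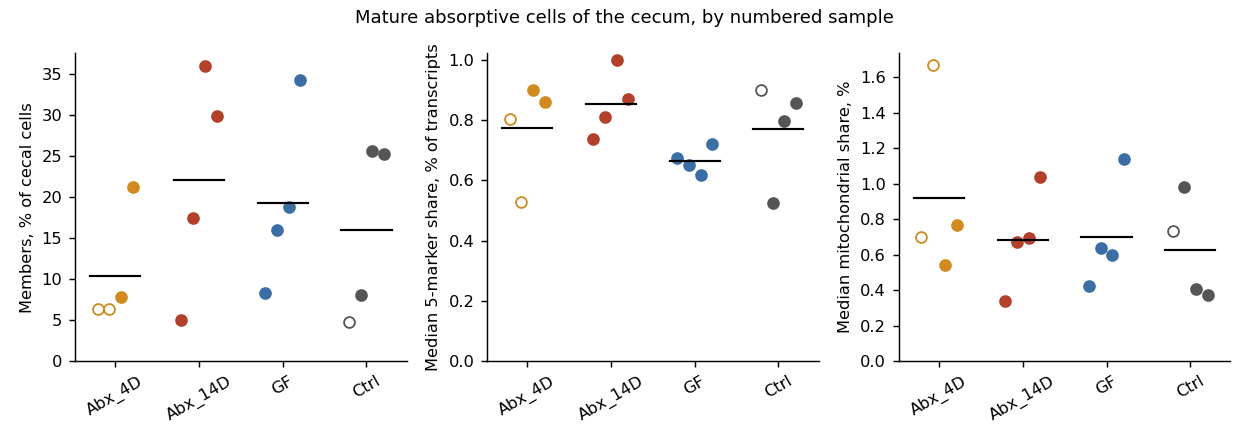
Share of cecal cells chosen (left, %), median share of the 5 marker genes (middle, % of a cell's transcripts) and median mitochondrial share (right, %) for each numbered sample of Abx_4D, Abx_14D, GF and Ctrl. Filled points are samples with at least 20 chosen cells, open points the others, and the line is the mean of 4 samples. Ctrl samples 3 and 4 lie at 0.408 and 0.372% mitochondrial share, and the Abx_14D and GF samples range from 0.339 to 1.14%.

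Transcripts were summed per sample where it held at least 20 chosen cells, which left 2 Abx_4D samples (3 and 4), 4 Abx_14D, 4 GF and 3 Ctrl samples (2, 3 and 4). Their sums ran from 327315 to 5530829 transcripts. A single cell gave 27.4% of the sum in Abx_14D sample 1 and 20.4% in Abx_4D sample 3. It gave 22.6, 18.0 and 22.5% in GF samples 1, 2 and 4, and 15.3% in Ctrl sample 2. In the other tested samples the largest cell gave at most 12.5%. Sums were compared with edgeR's quasi-likelihood test across 9608 genes, and genes were called at a Benjamini-Hochberg adjusted p under 0.05. All comparisons with Ctrl share the same 3 Ctrl samples. Median mitochondrial share over the cells was 0.719% in Abx_4D, 0.745% in Abx_14D and 0.754% in GF, against 0.413% in Ctrl, and its part in the differences below was not tested beyond the values given. Of the Ctrl samples, number 2 stood at 0.984%.

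Germ-free cells differed from Ctrl at more genes than antibiotic-treated cells did, a count that is not a test of that difference. In GF against Ctrl, 615 genes were higher (6.4% of those tested) and 560 lower (5.83%), 12.2% in all. In Abx_14D against Ctrl, 372 were higher (3.87%) and 328 lower (3.41%), 7.29% in all. In Abx_4D against Ctrl, 118 were higher (1.23%) and 146 lower (1.52%), 2.75% in all. GF cells had 59 genes higher (0.614%) and 173 lower (1.8%) than Abx_14D cells, 2.41% in all. Abx_14D cells had 0 genes higher (0%) and 3 lower (0.0312%) than Abx_4D cells, with 10 calls by DESeq2. At an unadjusted p under 0.05 by edgeR there were 411 genes, a smaller share than the 0.05 that no difference would give. Scaling by TMM, edgeR's trimmed mean, moved the median of all genes by up to 0.15 (log2) and gave 94 higher and 204 lower genes in Abx_4D, 291 and 501 in Abx_14D, and 453 and 740 in GF, each against Ctrl. The Abx_4D count of 264 depended on single samples: it was 108 and 137 without Abx_4D sample 3 or 4, and 155 and 166 without Ctrl sample 3 or 4. The Abx_14D count of 700 was 417 and 353 without Ctrl sample 3 or 4, and the GF count of 1175 was 618 without Ctrl sample 4. The count of 232 for GF against Abx_14D was 139 without Abx_14D sample 3 and 144 without GF sample 3. The count of 3 for Abx_14D against Abx_4D was 9 without Abx_14D sample 1 and 5 without either Abx_14D sample 2 or Abx_4D sample 3.

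Transcript levels of some genes for the cell surface differed from Ctrl in every condition. Among membrane mucins and surface glycan genes, 7 of 23 tested were lower and 1 higher in Abx_4D, 9 lower and 1 higher in Abx_14D, and 10 lower and 1 higher in GF, each against Ctrl. The list's median log2 fold change was -0.47, -0.54 and -0.57, beside 0.07, 0.15 and 0.16 for all genes. Plet1, which encodes a lipid-anchored surface protein, had 7.56 and 5.16 CPM in Abx_4D samples 3 and 4, 1.64, 0, 0.904 and 2.43 in Abx_14D samples 1 to 4, and 0, 1.04, 0.436 and 0 in GF samples 1 to 4, against 681, 222 and 612 CPM in Ctrl samples 2 to 4. No sample of a treated or germ-free group came near the lowest Ctrl sample. By edgeR's quasi-likelihood test, Plet1 was lower in Abx_4D by a log2 fold change of -6.27 ± 0.56 (SE, adjusted p = 4.9e-06) and in Abx_14D by -8.53 ± 0.49 (adjusted p = 6e-09). In GF only 2 counts were left, against 1704 in Ctrl, a summed level 1330 times higher in Ctrl with a 95% counting interval of 368 to 10991. The samples under 0.5% mitochondrial share had 1.64 CPM of Plet1 in Abx_14D sample 1 and 0 in GF sample 1, against 222 and 612 CPM in Ctrl samples 3 and 4, and groups of 1 sample were too small to test this. The Ctrl sample too small for the test held 590 CPM of Plet1 in 9 cells, and the small Abx_4D samples held 0 and 5.75 CPM.

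Muc4, a large membrane mucin, had 63.3 and 42.8 CPM in Abx_4D, 29.4, 26.2, 41.4 and 28.8 in Abx_14D, and 9.37, 10.4, 8.29 and 13.9 in GF, against 690, 354 and 424 CPM in Ctrl. The 4 groups did not overlap, and GF was the lowest. Its log2 fold change against Ctrl was -3.18 ± 0.31 in Abx_4D (adjusted p = 4.3e-07), -3.89 ± 0.24 in Abx_14D (1.9e-11) and -5.48 ± 0.28 in GF (1.1e-13), and GF was lower than Abx_14D by -1.58 ± 0.28 (edgeR, adjusted p = 0.00091). B3galt5, a galactosyltransferase of surface glycans, had 26.8 and 19.9 CPM in Abx_4D, 0 to 5.21 in Abx_14D and 0 to 1.75 in GF, against 135 to 413 CPM in Ctrl. Fut2, the fucosyltransferase that caps epithelial glycans for microbes, was lower too, at 63.3 and 86.3 CPM in Abx_4D, 27.0 to 52.3 in Abx_14D and 26.2 to 39.3 in GF, against 182 to 268 CPM in Ctrl (edgeR adjusted p = 0.00073, 1.1e-08 and 2.1e-09). The member that rose was Ugt8a, which makes galactosylceramide for the membrane. It had 60.5 and 34.7 CPM in Abx_4D, 45.8 to 138 in Abx_14D and 127 to 193 in GF, against 4.02 to 12.8 CPM in Ctrl (log2 fold changes of 2.41 ± 0.46, 3.45 ± 0.41 and 4.22 ± 0.41), and without Abx_4D sample 3 its Abx_4D call ended (log2 1.95, adjusted p = 0.09).

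Genes for antibacterial proteins and oxidases moved in 1 direction. Of 15 tested, 5 were lower in Abx_4D, 9 in Abx_14D and 9 in GF, and 0 were higher. The median log2 fold change was -1.01, -2.03 and -1.72. The Abx_4D count was 2 and 3 without Abx_4D sample 3 or 4. Duox2, the oxidase that makes hydrogen peroxide at the surface, had 30.3 and 14.7 CPM in Abx_4D, 0, 0.819, 1.63 and 2.08 in Abx_14D and 0, 1.04, 0 and 1.27 in GF, against 165, 91.1 and 167 CPM in Ctrl. It was intermediate in Abx_4D: -2.61 ± 0.39 there (adjusted p = 0.00016) and -6.44 ± 0.41 in Abx_14D (1.9e-11), and lower in Abx_14D than in Abx_4D by -3.83 ± 0.48 (edgeR, adjusted p = 0.00014). Reg3b, a lectin that kills Gram-negative bacteria, had 9.63 and 2.21 CPM in Abx_4D, 0, 0.819, 0 and 1.04 in Abx_14D and 0, 0, 0.436 and 0 in GF, against 85.5, 42.1 and 256 CPM in Ctrl. All Ctrl samples were above all others. The GF cells held 1 Reg3b count against 553, a ratio of 863 in favour of Ctrl (95% counting interval 154 to 34156). In Abx_4D the Reg3b call (adjusted p = 0.018) ended without sample 3 (log2 -5.85, adjusted p = 0.092) or sample 4 (-3.77, adjusted p = 0.18). Il18, a cytokine stored in epithelium, had 6.19 and 18.4 CPM in Abx_4D, 7.41 to 27.8 in Abx_14D and 22.5 to 40.5 in GF, against 78.9 to 174 CPM in Ctrl, with log2 fold changes of -3.14 ± 0.52, -2.77 ± 0.40 and -1.72 ± 0.37.

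MHC class II genes were lower in Abx_14D and in GF than in Ctrl. Of 7 tested, 2 were lower in Abx_4D, 6 in Abx_14D and 6 in GF, each against Ctrl, and 3 were lower in GF than in Abx_14D. Cd74, the invariant chain, had 190 and 90.0 CPM in Abx_4D, 62.2, 37.7, 13.6 and 26.0 in Abx_14D and 3.75, 3.11, 3.49 and 2.53 in GF, against 357, 514 and 489 CPM in Ctrl. The ranges were in that order without overlap. Its log2 fold change against Ctrl was -3.92 ± 0.38 in Abx_14D (adjusted p = 1.1e-05) and -7.18 ± 0.50 in GF (2e-07), and GF was lower than Abx_14D by -3.26 ± 0.54 (edgeR, adjusted p = 0.0036). In Abx_4D it was -1.70 ± 0.43 (adjusted p = 0.049), a call that ended without Abx_4D sample 4 (log2 -1.27, adjusted p = 0.31), Ctrl sample 2 (-1.84, 0.064), Ctrl sample 3 (-1.61, 0.13) or Ctrl sample 4 (-1.65, 0.11). The beta chain H2-Ab1 had 53.6 and 22.9 CPM in Abx_4D, 3.80 to 10.6 in Abx_14D and 0 to 1.04 in GF, against 70.3 to 135 CPM in Ctrl. Its Abx_4D call (-1.47 ± 0.39, edgeR adjusted p = 0.044) ended without Abx_4D sample 4 (log2 -0.99, adjusted p = 0.42), Ctrl sample 3 (-1.22, 0.2) or Ctrl sample 4 (-1.49, 0.1), so that no class II gene passed there. Its 3 counts in GF stood against 456 in Ctrl, 237 times higher in Ctrl (95% counting interval 80.7 to 1155). The median of the list, with genes of 3 or fewer counts set at a floor of 3 counts per group, was -1.29 for Abx_4D, -3.80 for Abx_14D and -5.71 for GF. The Ctrl sample too small for the test held 47.0 CPM of Cd74, below the range of the tested Ctrl samples.

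Interferon-stimulated genes separated germ-free cells from antibiotic-treated cells. Of 40 tested, 35 were lower in GF than in Ctrl and 35 were lower in GF than in Abx_14D, with 0 higher. The median log2 fold change was -3.80 against Ctrl and -3.84 against Abx_14D, beside 0.16 and 0.02 for all genes. It was -3.78 and -3.80 with genes of 3 or fewer counts at their bound. In Abx_4D 1 of 40 (Xaf1, 99.7 and 52.4 CPM, against 15.3 to 35.6 CPM in Ctrl) was higher than in Ctrl, and in Abx_14D 0 passed, with list medians of 0.89 and 0.36. Without Abx_14D sample 4, 6 of 40 were higher in Abx_14D (median 0.66), and without Ctrl sample 4 it was 1. The Xaf1 call (1.34 ± 0.37, edgeR adjusted p = 0.046) ended without Abx_4D sample 3 (log2 0.80, adjusted p = 0.47) or Ctrl sample 2 (1.19, 0.13), 3 (1.38, 0.14) or 4 (1.54, 0.078). Without the samples under 30 chosen cells, 31 and 32 of 40 were lower in GF than in Ctrl and Abx_14D. The comparisons of GF with Ctrl and with Abx_14D share the GF samples.

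Oasl2, of the 2'-5' oligoadenylate synthetase family, had 5.62, 4.15, 4.80 and 9.71 CPM in GF, against 330, 441, 347 and 116 in Abx_14D, 601 and 310 in Abx_4D, and 116, 168 and 258 CPM in Ctrl. The GF samples lay below all others, the Abx_14D and Ctrl ranges overlapped, and both Abx_4D samples lay above Ctrl without passing the test (log2 1.29 ± 0.49, adjusted p = 0.24 by edgeR). GF was lower than Ctrl by -4.82 ± 0.56 (adjusted p = 0.00015) and lower than Abx_14D by -5.54 ± 0.54 (edgeR, adjusted p = 0.00018). Isg15, the ubiquitin-like protein whose promoter is shown above, had 3.75, 1.04, 0.436 and 1.27 CPM in GF, against 103, 68.8, 86.4 and 21.2 in Abx_14D, 113 and 96.6 in Abx_4D and 15.3, 30.4 and 67.2 CPM in Ctrl. Ifit1, which binds foreign RNA ends, had 1.31 to 4.64 CPM in GF, against 48.3 to 165 in Abx_14D, 149 and 157 in Abx_4D and 30.6 to 125 CPM in Ctrl. MHC class I followed in part: 10 of 16 tested genes were lower and 1 (Erap1) higher in GF than in Ctrl, and 3 were lower in Abx_14D. Without Ctrl sample 4 these were 6 and 0. The Erap1 call (0.72 ± 0.24, adjusted p = 0.048) ended without any 1 of Ctrl samples 3 and 4 and GF samples 2, 3 and 4 (edgeR adjusted p of 0.064 to 0.29). B2m, the shared light chain, had 178 to 349 CPM in GF, against 620 to 1000 in Abx_14D, 710 and 1023 in Abx_4D, and 745 to 1279 CPM in Ctrl, a log2 fold change of -1.84 ± 0.23 in GF against Ctrl (adjusted p = 4.7e-06).

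**Figure D2:**
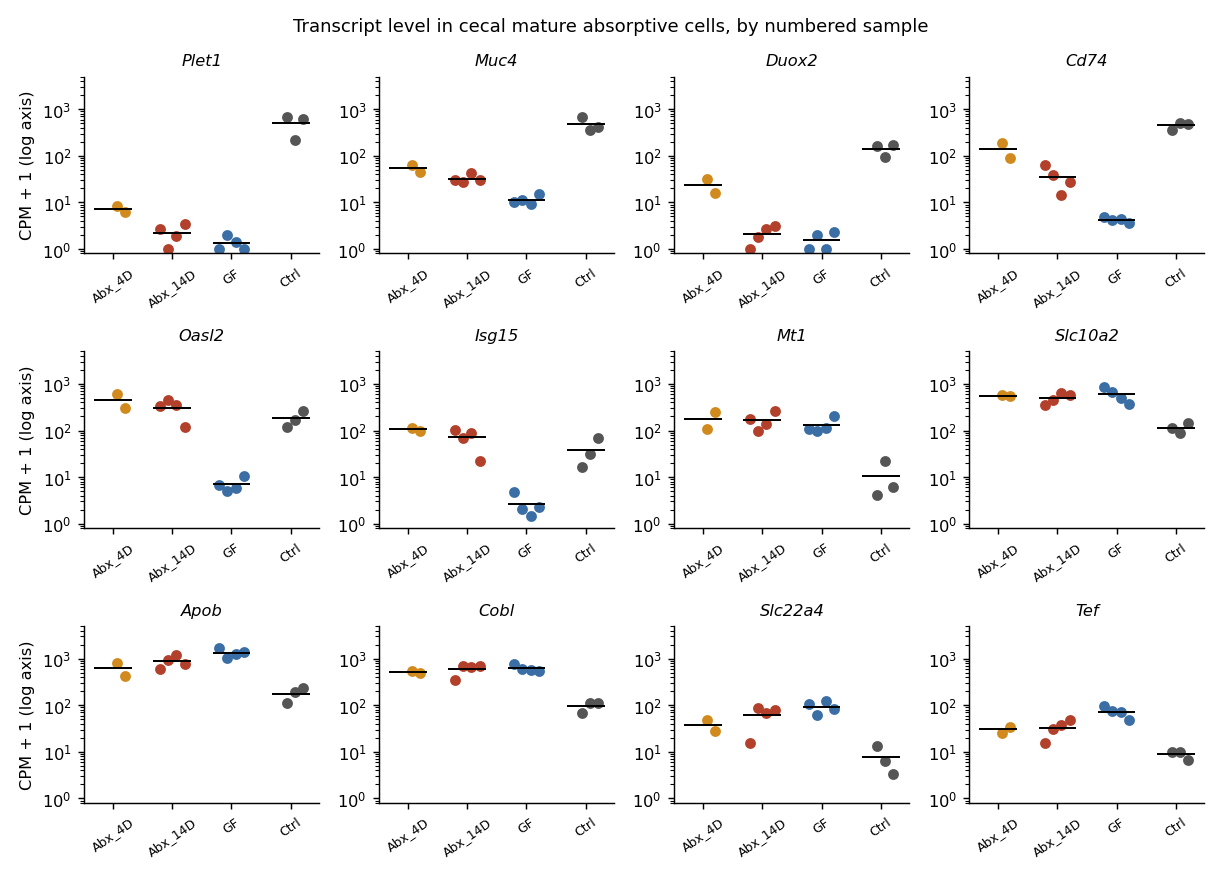
Levels of 12 genes in the chosen cells of each sample used in the tests, in CPM + 1 on a log axis, with the groups Abx_4D, Abx_14D, GF and Ctrl from left to right; points are samples and bars are means. Plet1 and Muc4 are high in Ctrl alone, Oasl2 and Isg15 are low in GF alone, and Cobl and Slc10a2 are low in Ctrl alone.

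A set of uptake and metabolic genes stood higher in all conditions than in Ctrl. Slc10a2, the sodium-coupled bile acid transporter best known from the ileum, had 567 and 542 CPM in Abx_4D, 353, 444, 649 and 567 in Abx_14D and 845, 669, 507 and 379 in GF, against 110, 86.3 and 146 CPM in Ctrl. All samples of the 3 conditions lay above all Ctrl samples. The log2 fold change was 2.28 ± 0.30 in Abx_4D, 2.14 ± 0.27 in Abx_14D and 2.38 ± 0.28 in GF (edgeR adjusted p = 0.00014, 1.9e-05 and 4e-06). Fabp6, the bile acid binding protein that goes with it in the ileum, was at 0 in every tested sample. Slc51a, part of the exporter that passes bile acids on to the blood, had 68.6 and 88.7 CPM in Abx_4D, 82.3 to 102 in Abx_14D and 117 to 240 in GF, against 34.6 to 54.0 CPM in Ctrl. It was higher in GF by 1.79 ± 0.26 (adjusted p = 1.6e-05) and in Abx_14D by 1.03 ± 0.25 (adjusted p = 0.0099, 0.12 and log2 0.81 without Ctrl sample 3), and the Abx_4D difference did not pass (0.78 ± 0.29, edgeR adjusted p = 0.17). Of 6 bile acid genes tested, 2, 3 and 2 were higher and 0 lower in Abx_4D, Abx_14D and GF, with 1 in Abx_4D without Abx_4D sample 3 or Ctrl sample 3, and 1 in Abx_14D without Ctrl sample 3.

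Apob, the structural protein of chylomicrons, had 817 and 434 CPM in Abx_4D, 594, 944, 1220 and 777 in Abx_14D and 1702, 1023, 1255 and 1415 in GF, against 110, 187 and 228 CPM in Ctrl. No sample of a condition fell into the Ctrl range. It rose by 1.79 ± 0.32 in Abx_4D (adjusted p = 0.0035, 0.075 and log2 1.26 without Abx_4D sample 3), 2.29 ± 0.29 in Abx_14D (3.6e-05) and 2.90 ± 0.30 in GF (edgeR, 2.2e-06). Other parts of chylomicron assembly were near absent: Mttp reached at most 3.05 CPM and Apoa4 at most 0.694 CPM in any tested sample. Of 13 lipid absorption genes tested, 4, 5 and 4 were higher and 0, 1 and 2 lower in Abx_4D, Abx_14D and GF (2 higher in Abx_4D without sample 4, and 1 lower in GF without Ctrl sample 2 or 3). Cobl, an actin nucleator of microvilli, had 534 and 488 CPM in Abx_4D, 342, 678, 665 and 692 in Abx_14D and 769, 613, 567 and 549 in GF, against 67.2, 111 and 112 CPM in Ctrl, a change of 2.34 ± 0.26, 2.56 ± 0.24 and 2.62 ± 0.24 (edgeR adjusted p = 3.1e-06, 2.3e-08 and 1.7e-08). Tmigd1, an adhesion protein of the brush border, was 302 to 651 CPM in the samples of the 3 conditions, against 119 to 206 CPM in Ctrl. Of 21 brush border structure genes, these 2 were higher in Abx_4D, 3 in Abx_14D (5 without Abx_14D sample 1) and 3 in GF, with 1 lower in GF. Over all genes tested, 1.23, 3.87 and 6.4% were higher, and 5.83% lower in GF. The list's median log2 fold change was 0.24, 0.21 and 0.07, beside 0.07, 0.15 and 0.16 for all genes, so in GF the list as a whole stood no higher than other genes.

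Slc22a4, a carrier of ergothioneine and other organic cations, had 48.1 and 26.5 CPM in Abx_4D, 14.7, 85.2, 68.2 and 78.5 in Abx_14D and 107, 62.3, 120 and 82.3 in GF, against 12.2, 5.33 and 2.30 CPM in Ctrl. The lowest Abx_14D sample lay close above the highest Ctrl sample. It was higher by 3.75 ± 0.60 in Abx_14D (adjusted p = 0.00097) and 4.28 ± 0.59 in GF (edgeR, 0.0002). The Abx_4D call (2.97 ± 0.67, adjusted p = 0.028) ended without Abx_4D sample 3 (log2 2.47, adjusted p = 0.2), Ctrl sample 3 (3.14, 0.13) or Ctrl sample 4 (2.47, 0.14). Of 15 sugar, amino acid, cation and vitamin transporters, 1, 3 and 7 were higher and 0 lower in Abx_4D, Abx_14D and GF, and 7 in Abx_14D without its sample 1. Aldh1a1, which makes retinoic acid from retinaldehyde, had 781 and 915 CPM in Abx_4D, 920 to 1256 in Abx_14D and 931 to 1339 in GF, against 183 to 242 CPM in Ctrl (log2 1.99 ± 0.22, 2.28 ± 0.20 and 2.28 ± 0.20). Rdh1, a retinol dehydrogenase of the step before, went the other way, with 2.06 and 2.21 CPM in Abx_4D, 1.04 to 5.73 in Abx_14D and 0 to 3.11 in GF, against 24.0 to 36.7 CPM in Ctrl (edgeR adjusted p = 0.0018, 1.3e-05 and 4e-06). Cyp4f14, a fatty acid hydroxylase, had 383 and 404 CPM in Abx_4D, 384 to 568 in Abx_14D and 282 to 331 in GF, against 72.5 to 110 CPM in Ctrl. Of 37 genes for drug-metabolising enzymes and their receptors, 7, 10 and 9 were higher and 0, 1 and 1 lower in Abx_4D, Abx_14D and GF. The Abx_4D count was 3 without Abx_4D sample 3 or Ctrl sample 4, and 4 without Ctrl sample 2.

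The metallothioneins, whose element is shown above, were among the genes with the largest increases in Abx_4D and Abx_14D. Mt1 had 107 and 245 CPM in Abx_4D, 175, 99.1, 134 and 267 in Abx_14D and 109, 94.5, 114 and 206 in GF, against 3.06, 20.8 and 5.17 CPM in Ctrl. The 3 conditions overlapped with each other and not with Ctrl. Mt1 was higher by 3.88 ± 0.67 in Abx_4D (adjusted p = 0.0094), 3.83 ± 0.62 in Abx_14D (0.003) and 3.48 ± 0.62 in GF (edgeR, 0.0036). The Abx_4D call ended without sample 4 (log2 3.17, adjusted p = 0.074). Mt2 had 47.4 and 122 CPM, 40.9 to 91.6 and 25.9 to 103 CPM in the same order, against 1.15 to 5.33 CPM in Ctrl. Slc30a1, a zinc exporter, did not pass in any comparison with Ctrl (log2 -0.27 ± 0.26, -0.24 ± 0.21 and -0.29 ± 0.22). Of 18 metal genes tested, 3, 4 and 9 were higher and 1, 1 and 2 lower in Abx_4D, Abx_14D and GF, with 1 higher in Abx_4D without its sample 4 and 4 higher in GF without Ctrl sample 4. S100g, a calcium-binding protein of absorptive cells, was the lower member in all 3, with 4.81 and 4.42 CPM in Abx_4D, 2.17 to 3.27 in Abx_14D and 5.62 to 19.4 in GF, against 36.7 to 74.1 CPM in Ctrl. Slc11a2, the importer of iron at the brush border, had 15.6 to 68.5 CPM in GF, against 10.6 to 21.3 in Abx_14D (log2 1.93 ± 0.33, edgeR adjusted p = 0.001).

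Clock genes differed from Ctrl in Abx_14D and GF. Of 17 tested, 8 were higher and 2 lower in Abx_14D, 9 higher and 3 lower in GF, and 1 higher in Abx_4D. Tef, a clock output factor, had 24.8 and 33.9 CPM in Abx_4D, 14.7, 29.5, 35.8 and 47.2 in Abx_14D and 97.5, 74.7, 70.7 and 46.8 in GF, against 9.17, 9.06 and 5.74 CPM in Ctrl. Every sample of the 3 conditions lay above Ctrl. It rose by 2.14 ± 0.38 in Abx_14D (adjusted p = 0.00039) and 3.19 ± 0.38 in GF (edgeR, 9.6e-07). The Abx_4D call (1.93 ± 0.43, adjusted p = 0.0099) ended without Abx_4D sample 4 (log2 1.69, adjusted p = 0.12) or Ctrl sample 4 (1.68, 0.091). Nfil3, a repressor of the same target sites, had 5.50 and 4.42 CPM in Abx_4D, 3.47 to 6.54 in Abx_14D and 0 to 2.95 in GF, against 11.7 to 24.1 CPM in Ctrl, and was lower in Abx_14D (-2.10 ± 0.44) and GF (-3.24 ± 0.51), the call in Abx_14D ending without Ctrl sample 4 (log2 -1.76, edgeR adjusted p = 0.092). Dbp, a factor related to Tef, was sparse, with 94 counts in Abx_14D and 59 in GF, against 1 in Ctrl. The times of day at which tissue was taken were not given, so a difference in hour and a difference of condition cannot be told apart. Without Ctrl sample 3 or 4, 5 and 3 clock genes were higher in Abx_14D. The 2 lower ones were 1 without Abx_14D sample 1, 3 or 4 or Ctrl sample 2, and 0 without Ctrl sample 4.

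Ion, water and fuel genes changed singly rather than as groups. The water channel Aqp4 had 4.81 and 7.37 CPM in Abx_4D, 3.27 to 10.8 in Abx_14D and 0.873 to 7.50 in GF, against 309, 56.0 and 72.9 CPM in Ctrl (edgeR adjusted p = 0.016, 0.0014 and 0.00032). Its Abx_4D call ended without Abx_4D sample 3 (log2 -4.13, adjusted p = 0.19) or 4 (-4.74, 0.16). Aqp8 was lower in GF only by test, at 49.7 to 86.2 CPM, against 128 to 514 CPM in Ctrl. The differences of Abx_4D and Abx_14D did not pass (175 to 320 and 60.5 to 260 CPM). GF cells also had a lower median marker share than Ctrl cells (0.659 against 0.806%). Within samples, cells above the median marker share had 339 CPM of Aqp8 and those below it 51.0 CPM. Whether marker share accounts for the lower Aqp8 in GF was not tested. The sodium-coupled short-chain fatty acid carrier Slc5a8 had 60.5 and 67.1 CPM in Abx_4D, 78.1 to 123 in Abx_14D and 89.4 to 144 in GF, against 220 to 292 CPM in Ctrl (log2 -2.04 ± 0.26, -1.40 ± 0.20 and -1.22 ± 0.20). Oxct1, which lets cells burn ketone bodies, stood higher, at 92.1 and 96.6, 176 to 207 and 82.3 to 165 CPM in the same order, against 35.7 to 42.8 CPM in Ctrl. In Abx_4D the Oxct1 call (1.25 ± 0.27, adjusted p = 0.0071) ended without Abx_4D sample 3 (1.28, 0.05), Abx_4D sample 4 (1.21, 0.061) or Ctrl sample 3 (1.15, 0.064). Of 20 genes for sodium, chloride and bicarbonate transport, 1, 3 and 2 were higher and 0 lower in Abx_4D, Abx_14D and GF. The Abx_4D count was 0 without any 1 of the 5 samples. In Abx_14D 1 was lower without Abx_14D sample 4 and 1 higher without Ctrl sample 3. In GF 1 was higher without Ctrl sample 3 or 4 or GF sample 2 or 4.

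Of the genes for nicotinic acid and NAD, the subject of the series title, 13 were tested. Cd38, an enzyme that consumes NAD, was lower in each condition: 217 and 175 CPM in Abx_4D, 113 to 165 in Abx_14D and 122 to 184 in GF, against 452 to 883 CPM in Ctrl (log2 -1.79 ± 0.26, -2.37 ± 0.21 and -2.22 ± 0.21, edgeR adjusted p = 0.00015, 8.3e-09 and 2.6e-08). Its ranges in the 3 conditions lay below all Ctrl samples. Nmnat3, which makes NAD in mitochondria, had 26.2 to 35.9 CPM in GF, against 9.59 to 20.7 CPM in Ctrl (1.11 ± 0.34, edgeR adjusted p = 0.029), and its call ended without Ctrl sample 2 (log2 1.07, adjusted p = 0.058), Ctrl sample 3 (0.79, 0.24), GF sample 2 (1.09, 0.052) or GF sample 4 (1.03, 0.078). Hcar2, the nicotinic acid receptor, had 0 counts in every tested sample. No other member passed in a comparison with Ctrl.

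Some lists had few genes called. Oxidative phosphorylation had 0 of 23 genes called in Abx_4D, 1 higher in Abx_14D and 1 lower in GF, single calls that ended without 1 or another of the samples. Claudins and junctions had 0, 1 and 1 of 22 called, and cholesterol synthesis 0, 3 and 1 of 21 (1 in Abx_14D without Abx_14D sample 3 or 4 or Ctrl sample 3, and 0 without Ctrl sample 4). Of 14 regional transcription factors, Hoxb6 was lower in Abx_4D and Abx_14D and Gata6 higher in GF, with adjusted p from 0.054 to 0.19 for Hoxb6 in Abx_4D without Abx_4D sample 3 or 4 or Ctrl sample 2 or 3, 0.077 and 0.072 in Abx_14D without Abx_14D sample 3 or Ctrl sample 2, and 0.057 to 0.16 for Gata6 in GF without any 1 sample other than GF sample 3 (edgeR).

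Gasdermins, inflammasome and cell death genes were lower in Abx_14D and GF, with 7 of 19 called in each, none of them higher, and 1 lower in Abx_4D, a call that ended without either Abx_4D sample. The list's median log2 fold change was -0.16 in Abx_4D, -0.27 in Abx_14D and -0.34 in GF, beside 0.07, 0.15 and 0.16 for all genes. Without 1 of Abx_14D samples 2 to 4 or Ctrl samples 2 to 4 the Abx_14D count was 3 or 4, and the GF count was 4 without Ctrl sample 3 or GF sample 3. Gsdmc2 and Gsdmc3 were lower in both Abx_14D and GF. The Gsdmc2 call ended in GF without any 1 sample, and in Abx_14D without Abx_14D sample 2, 3 or 4 or Ctrl sample 2 or 3. In GF the Gsdmc3 call ended without Ctrl sample 2 or 3 or GF sample 1, 2 or 3. Gsdmc4, a gasdermin C gene whose near-identical copies can share reads, had 87.3 and 157 CPM in Abx_4D, 106 to 458 in Abx_14D and 164 to 437 in GF, against 719 to 1225 CPM in Ctrl, and passed in Abx_14D alone (-2.18 ± 0.55, edgeR adjusted p = 0.044), a call that ended without Abx_14D sample 2 (log2 -1.96, adjusted p = 0.093), sample 3 (-1.98, 0.11) or sample 4 (-2.09, 0.12), and without Ctrl sample 2 (-1.96, 0.12), sample 3 (-2.21, 0.11) or sample 4 (-2.35, 0.089). Genes of dissociation stress, which cells switch on during handling, had 0 of 18 called in Abx_4D, 2 lower in Abx_14D and 9 lower in GF (4 without Ctrl sample 3 and 5 without GF sample 4), with list medians of -0.86, -0.10 and -1.08. The Abx_14D count was 1 or 0 without any 1 of Abx_14D samples 1 to 4 or Ctrl samples 2 and 3. Their part in the other differences was not tested.

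**Figure D3:**
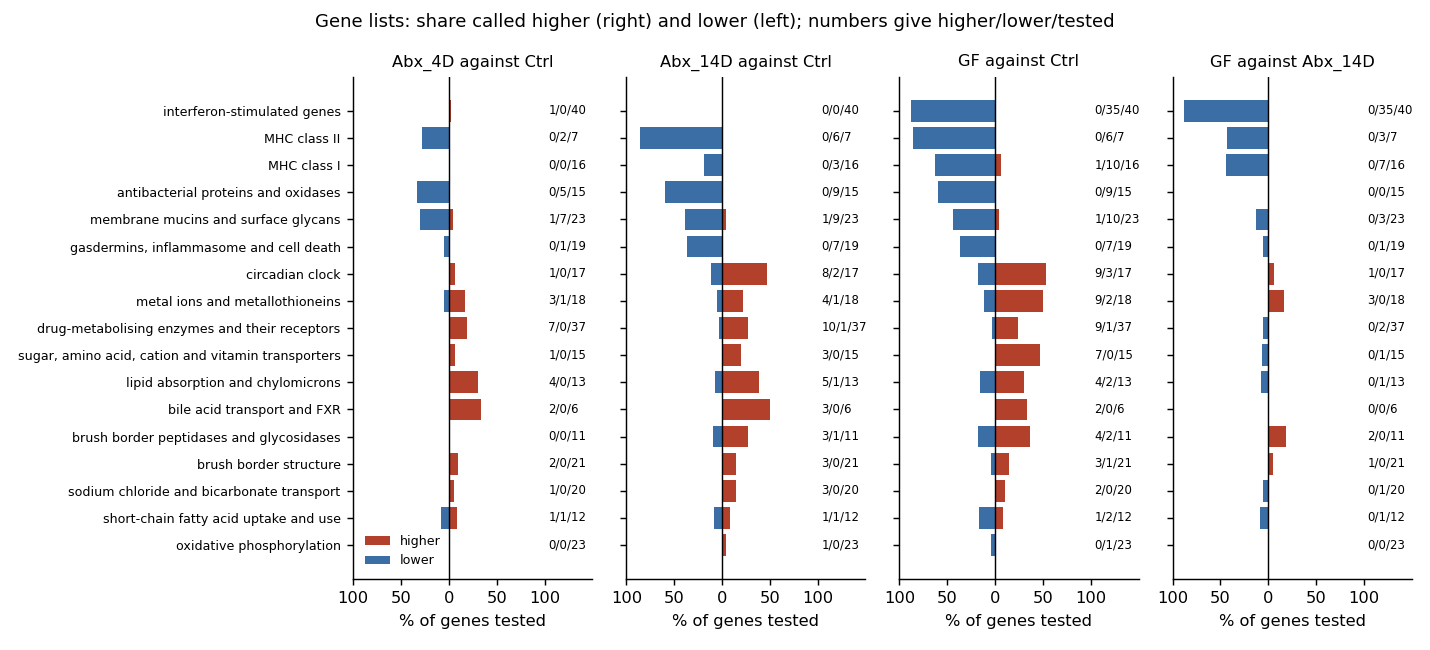
Share of the tested genes of 17 lists that were called higher (right of 0) or lower (left of 0), in %, for Abx_4D, Abx_14D and GF against Ctrl and for GF against Abx_14D; the figures at the bars are genes higher, lower and tested. Interferon genes reach 35 lower of 40 in the GF comparisons alone, and MHC class II genes 6 lower of 7 in Abx_14D and GF against Ctrl.

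Germ-free and Abx_14D cells also differed outside the interferon set. Bmp3, a ligand of the BMP family, had 76.9, 94.5, 79.0 and 125 CPM in GF, against 8.18, 13.1, 15.7 and 18.4 CPM in Abx_14D, a log2 fold change of 2.66 ± 0.28 (edgeR, adjusted p = 5.6e-07). The 2 groups were far apart. Aoc1, the diamine oxidase that breaks down histamine and putrescine, had 202 to 296 CPM in GF, against 32.7 to 85.1 CPM in Abx_14D (1.86 ± 0.23, edgeR adjusted p = 1.2e-05). Mep1a, a brush border metalloprotease, had 797 to 1241 CPM in GF, against 391 to 676 CPM in Abx_14D, a difference that did not pass without GF sample 4 (log2 0.65, adjusted p = 0.083) and passed with it (0.78 ± 0.18, edgeR adjusted p = 0.014). In the other direction, the uncharacterised gene 1700057G04Rik had 0 to 18.8 CPM in GF, against 53.5 to 73.6 CPM in Abx_14D (-2.71 ± 0.40, edgeR adjusted p = 0.00074). It had 0 counts in the 3 tested Ctrl samples, so that Abx_14D was at least 76.8-fold higher, taking 3 counts over the whole group as the floor, but the small Ctrl sample of 9 cells held 15.7 CPM.

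Whether a change belonged to mature cells was tested as the difference between their condition effect and that of the other cecal cells of the same samples, in 1 edgeR fit with the sample as a block across 13334 genes. In GF against Ctrl the mature cells changed more towards higher at 248 genes (1.86%) and more towards lower at 239 (1.79%), 3.65% in all. In Abx_14D these were 152 (1.14%) and 132 (0.99%), 2.13% in all, and in Abx_4D 54 (0.405%) and 47 (0.352%), 0.757% in all. For Muc4, mature cells had a mean of 10.5 CPM in GF and 490 CPM in Ctrl, and the other cells 258 and 339 CPM, a difference of effects of -5.11 ± 0.29 (edgeR, adjusted p = 5e-10). Aldh1a1 had 1043 and 212 CPM in mature cells of GF and Ctrl, and 152 and 125 CPM in the other cells, a difference of 2.04 ± 0.25 (adjusted p = 0.00012). Cobl had 625 and 96.9 CPM, and 238 and 182 CPM in the other cells (2.17 ± 0.22, edgeR adjusted p = 2e-06). Rdh1 had 1.31 and 29.4 CPM in mature cells and 77.0 and 66.9 CPM in the others, so the fall was not seen outside them (-4.42 ± 0.49, adjusted p = 2.7e-06).

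Other changes in GF were not distinguished from those of the remaining cells. Cd74 had 3.22 and 454 CPM in mature cells of GF and Ctrl and 5.29 and 351 CPM in the other cells, with a difference of effects of -0.91 ± 0.50 (edgeR, adjusted p = 0.39). In Abx_14D that difference for Cd74 passed, at -1.08 ± 0.27 (adjusted p = 0.043). Mt1 had 131 and 9.67 CPM, and 214 and 31.6 CPM in the other cells (0.99 ± 0.52, adjusted p = 0.38). Slc10a2, at 600 and 114 CPM, stood at 28.4 and 8.89 CPM outside the mature cells, and its difference of 0.94 ± 1.07 did not pass (edgeR adjusted p = 0.74). A miss of the threshold does not show equal effects, and the interval of about 2 SE on either side is wide for Slc10a2. The interferon genes were divided. Oasl2 had 6.07 and 181 CPM in mature cells of GF and Ctrl, and 2.52 and 17.7 CPM in the other cells (-1.99 ± 0.40, edgeR adjusted p = 0.004). The difference of effects also passed for Ifit2, Ifit3, Isg15 and Mx2, among others. It did not pass for Gbp3, Ifi44, Ifit1, Oas2 and Rsad2, among others. Without single samples the number of called differences ranged from 12 to 80 in Abx_4D (101 with all), from 121 to 341 in Abx_14D (284) and from 200 to 549 in GF (487). The Abx_4D count was 12 and 57 without Abx_4D sample 3 or 4, and 45 and 52 without Ctrl sample 3 or 4. In Abx_14D it was 180, 162 and 171 without Abx_14D sample 2, 3 or 4, and 121 and 123 without Ctrl sample 3 or 4. The GF count was 283 and 200 without Ctrl sample 3 or 4, and 271 without GF sample 3.

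**Figure D4:**
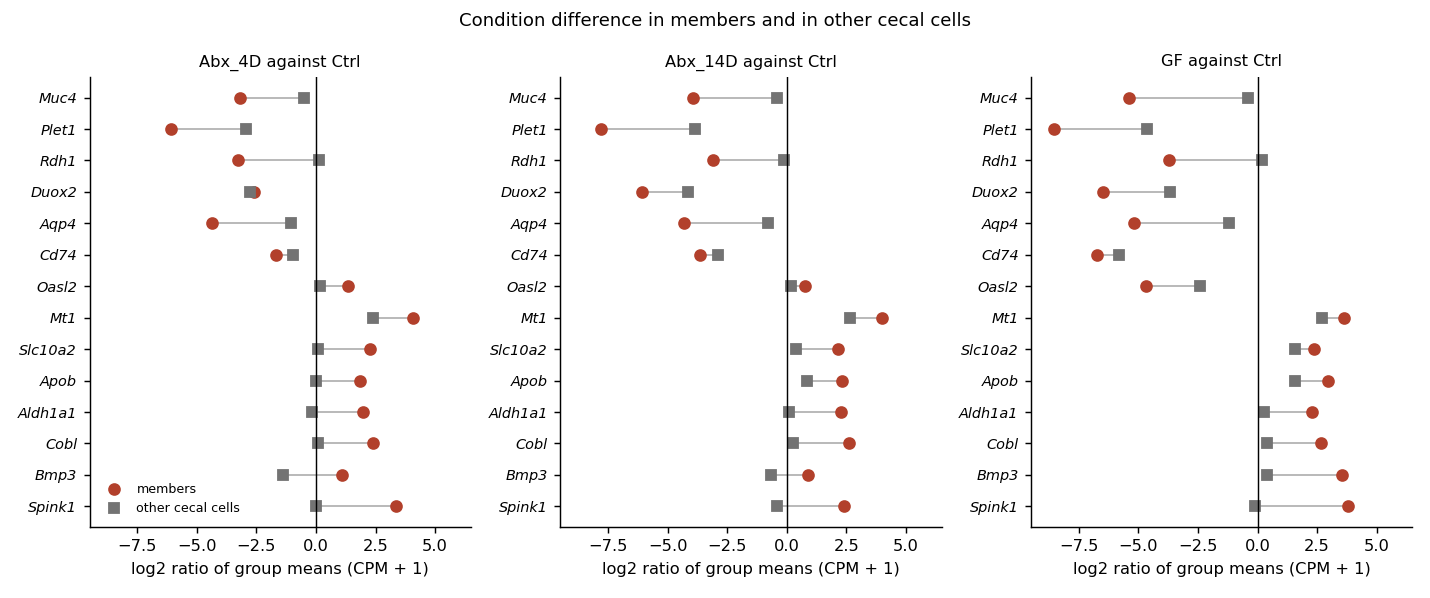
Log2 ratio of group means (CPM + 1) of each condition to Ctrl for 14 genes, with circles for the mature cells (members) and squares for the other cecal cells, in panels for Abx_4D, Abx_14D and GF. Muc4 and Rdh1 are far below 0 in mature cells and near 0 in the others, while for Cd74 and Mt1 both symbols lie on the same side of 0.

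Cecal and colonic mature cells could be compared in Abx_14D and GF, where each tissue had 4 samples. The colon's own top 20% of the marker share began at 0.0431% (1629 cells, median 0.0829%), well under the cecal limit of 0.339%. By share of markers these colon cells are less mature. The 203 colon cells past the cecal limit (2.22% of 9143, median 0.542%) were therefore compared as well, in samples with at least 10 of them. This alternative was added after the values were seen. Against the colon's own top 20%, 1595 genes were higher (14.3%) and 4998 lower (44.8%) in the cecum in Abx_14D, 59.2% in all, and 1323 higher (11.9%) and 4349 lower (39%) in GF, 50.9% in all. Against the cells past the cecal limit, 352 were higher (4.56%) and 761 lower (9.86%) in Abx_14D, 14.4% in all, and 365 higher (4.73%) and 728 lower (9.43%) in GF, 14.2% in all. Of 6593 and 5672 genes called against the colon's own top 20%, 980 and 769 were called in the same direction in both ways.

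Genes that differed both ways included factors of regional identity. Hoxb13, a homeobox factor of the distal gut, had 0.427 ± 0.344 CPM in cecal cells of Abx_14D, against 68.2 ± 13.2 in the colon's own top 20% and 77.2 ± 16.7 CPM in colon cells past the cecal limit (SD, n = 4 each). In GF it had 0.218 ± 0.436 CPM in the cecum, against 69.5 ± 21.1 and 68.0 ± 18.2 CPM. Thbs4, a matrix glycoprotein, and Atp12a, the proton pump of the distal colon, followed the same pattern, at 2.09 against 162 and 141 CPM and at 0.409 against 52.0 and 223 CPM in Abx_14D. Adamts18, a secreted metalloprotease, was higher in the cecum, with 240 ± 91.9 CPM in GF, against 6.05 ± 3.67 and 16.3 ± 14.0 CPM. Clca4a, a chloride channel regulator, had 1640 ± 728 CPM in cecal cells of Abx_14D, against 26.0 ± 8.93 and 106 ± 62.4 CPM. Aqp4 and B3galt5, which were low in these cecal cells relative to Ctrl cecum, were high in the colon of the same conditions, with 2.98 against 438 and 538 CPM for Aqp4 in GF and 0.907 against 166 and 224 CPM for B3galt5.

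Some differences vanished or turned when cells of like marker share were compared. Krt20 was higher in the cecum against the colon's own top 20% in Abx_14D (2.96 ± 0.22, edgeR adjusted p = 2.6e-10) and not distinguished from the cells past the cecal limit (0.59 ± 0.26, adjusted p = 0.15). Cobl in GF was 0.66 ± 0.17 higher than in the colon's own top 20% (adjusted p = 0.0024) and 0.62 lower than in the cells past the limit, on the log2 scale (-0.62 ± 0.20, edgeR adjusted p = 0.035). Apob held in both, at 1349 ± 285 CPM in cecal cells of GF, against 118 ± 26.7 and 386 ± 148 CPM (edgeR adjusted p = 3.6e-12 and 0.0002). The change between GF and Abx_14D itself had 10 genes higher (0.0897%) and 91 lower (0.816%) in the colon's own top 20%, 0.906% in all, and 76 higher (0.985%) and 131 lower (1.7%) in colon cells past the cecal limit, 2.68% in all. That change differed between cecum and colon at 5 genes towards higher (0.0449%) and 6 towards lower (0.0538%), 0.0987% in all. With colon cells past the cecal limit these counts were 6 (0.0777%) and 14 (0.181%), 0.259% in all. The count of 11 was 30 without cecal Abx_14D sample 1, 17 without cecal Abx_14D sample 4, 3 without cecal GF sample 4 or colon GF sample 2, and 6 without cecal Abx_14D sample 3, colon Abx_14D sample 2 or colon GF sample 1 or 3.

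**Figure D5:**
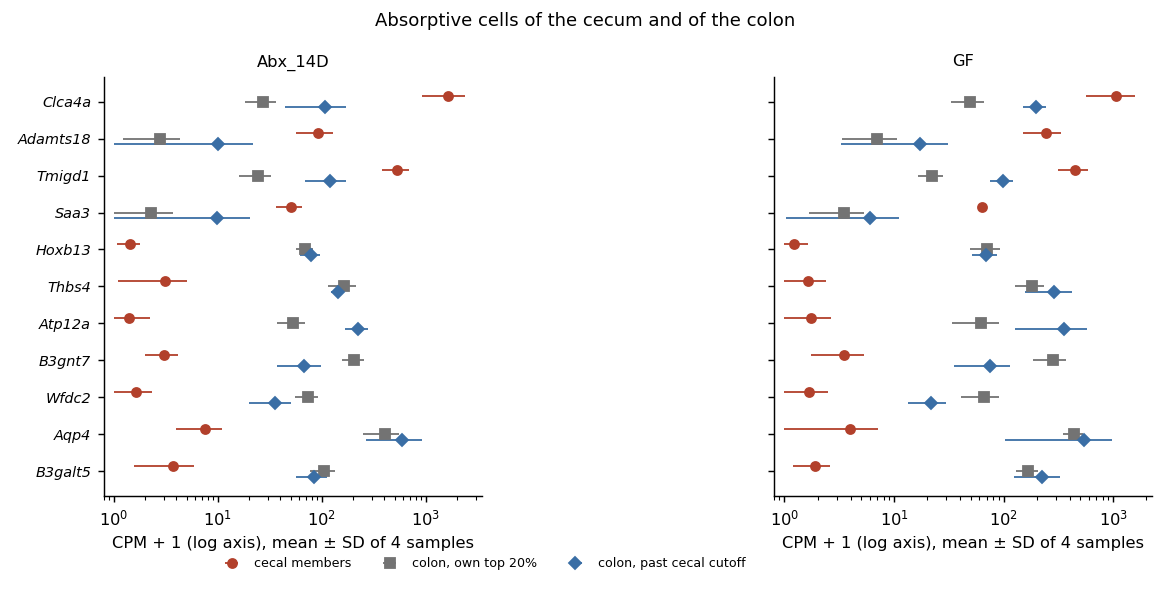
Levels of 11 genes in Abx_14D and in GF, as mean and SD of 4 samples in CPM + 1 on a log axis, for cecal mature cells, the colon's own top 20% and the colon cells past the cecal limit; error bars end at 0 where the SD exceeds the mean. Cecal members are the mature cells described here. Hoxb13 and Thbs4 lie lower in the cecum than in either set of colon cells, and Clca4a and Adamts18 lie higher.

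The mature cells were not uniform. Within each of the 13 tested samples, the cells above and below the sample's median marker share were summed and compared. This continues the ranking that chose the cells and is given without a test. Of 2012 genes with at least 100 CPM, 242 were higher and 120 lower in the upper part in every sample. The upper part had more Saa1, an acute phase protein (356 against 53.0 CPM), Car4, a surface carbonic anhydrase (208 against 48.2), and Selenop, a selenium carrier (498 against 112), together with Aqp8 (339 against 51.0) and Krt20 (3039 against 1036 CPM). Lower there were Slc37a2, a carrier of sugar phosphates (160 against 1511 CPM), Slc4a4, a bicarbonate cotransporter (135 against 572), Slc20a1, a phosphate carrier (91.0 against 396), and the chloride channel Cftr (99.3 against 298 CPM), each in 13 of 13 samples. Mt1, higher in each condition than in Ctrl, was lower in the upper part in 12 of 13 samples (69.5 against 173 CPM). Gsdmc2 (216 against 414 CPM) and Gsdmc4 (237 against 502 CPM) were also each lower there in 12 of 13 samples.

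Shares of cells gave the same picture as sums for most genes. Each cell was thinned to 3000 transcripts, which left out 17 Abx_4D, 45 Abx_14D, 49 GF and 10 Ctrl cells. Shares were set beside those in goblet-rich cecal cells. These cells are not a floor of free RNA for every gene: Muc4 was read in 53.6% of them in Ctrl and in 49.8% of Ctrl mature cells. The comparison therefore does not separate expression from free RNA. Plet1 was read in 2.38% of Abx_4D, 0% of Abx_14D, 0% of GF and 42.3% of Ctrl mature cells (5.95, 1.70, 0.625 and 65.1% before thinning). In goblet-rich cells it was read in 3.19, 1.60, 0 and 15.9%, so that only the Ctrl share stood above that of goblet-rich cells. Slc10a2 was read in 57.1, 57.5, 53.5 and 18.4% of mature cells in that order, and in at most 4.62% of goblet-rich cells (78.9, 76.2, 67.5 and 49.4% before thinning). Isg15 was read in 22.6% of Abx_4D, 16.5% of Abx_14D, 0.369% of GF and 11.7% of Ctrl cells, and in at most 1.06% of goblet-rich cells. Median depth was 11989, 14525, 10879 and 13774 transcripts in mature cells and 15821, 17855, 21519 and 22434 in goblet-rich cells.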

How the data were processed

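Single-cell RNA of cecal and colonic epithelium was measured by split-pool barcoding. The authors deposited raw counts of transcripts per gene and cell, with a cell table that names each cell's sample. The cells were processed with Seurat and the mm39 build, per the submitters' processing notes, and GRCm39 is the build in the gene table. Which aligner and counter were used is not given in the sources here. Groups were taken from the sample names in the cell table, since each library held all samples. The mature cells and the gene lists were chosen with earlier results of these data known.

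Cells with at least 500 transcripts were used, and doublets were not called or removed. Counts were summed per sample with at least 20 chosen cells, or at least 10 for the colon cells past the cecal limit. Sums were tested with edgeR 4.0.16 (R 4.3.3) by its quasi-likelihood test with library-size scaling, its filter on low counts and Benjamini-Hochberg adjustment at 0.05, in 1 fit over the groups. The numbered samples are not labelled as separate animals and cells were pooled by condition before sorting, so p-values measure only how far these samples spread, and that spread may be technical. Intervals and floors (95%, 3 counts) cover counting error only. Fewer cells of a type and less RNA per cell cannot be told apart in such sums.

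Named genes were those called without overlap of the samples and with at least 20 CPM in the higher group, 10 by size in each direction, plus called members of the lists (up to 4 each). Other genes were named for a role in a list after their values were seen. Alternatives were TMM scaling, DESeq2 1.42.0, limma-voom (limma 3.58.1), other filters and cell cutoffs, sublibraries 1 to 4 or 5 to 8 alone and leaving out each sample. The fit was tested on simulated data, with changes set in genes above 20 CPM and counts drawn at the spread estimated from these samples. For Abx_4D, Abx_14D and GF against Ctrl, 96, 100 and 100% of genes changed by a log2 of 2 were recovered. Of those changed by a log2 of 1, 29, 65 and 53% were recovered, and 6, 6 and 7 unchanged genes were called. Changes in genes of lower counts and sums led by 1 large cell were not simulated.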

Additional observations from a re-analysis of the deposited data

Results flagged for a closer look

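In 9 of 110 groups of 4 samples tested, 1 sample stood far from the others by Dixon's criterion; chance gives about 1 in 20. Abx_4D sample 4 had 21.2% mature cells, the highest of its group. In Abx_14D these were B2m at 1000 CPM and Cobl at 342 CPM in sample 1, Rdh1 at 5.73 CPM in sample 2 and Xaf1 at 21.9 CPM in sample 4. In GF they were Aldh1a1 at 1339 CPM and Dbp at 22.5 CPM in sample 1, S100g at 19.4 CPM in sample 4 and Reg3b at 0.436 CPM in sample 3. The tested GF samples held 1 Reg3b count in all, so that result was fixed in advance and does not mark a sample that stands apart.

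The change against Ctrl differed between mature and other cecal cells by edgeR's interaction test for the following genes, given as log2 differences. Fitted values of genes with 3 or fewer counts in a group depend on the prior count. In Abx_4D they were -2.61 for Muc4, -3.14 for Plet1, -3.83 for Rdh1, 4.75 for Reg3b and 7.06 for Homer2, a scaffold protein of synapses. In Abx_14D they were -3.37 for Muc4, -4.03 for Plet1, -3.44 for Rdh1, -3.50 for Reg3g and 6.98 for Homer2. In GF the negative ones were -5.11 for Muc4, -5.04 for Plet1, -4.42 for Rdh1, -3.72 for Duox2, -4.31 for Aqp4, -5.24 for Ifit2 and -3.72 for Usp18. The positive ones in GF were 3.02 for Bmp3, 3.54 for Slc13a1, 3.87 for Spink1, 4.56 for Prss23 and 2.04 for Aldh1a1.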

How the results depend on the processing

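The counts of called genes moved by over 1.5 times in these cases. For Abx_14D against Abx_4D (3 genes) the count was 10 with DESeq2, 5 with limma-voom, 44 without a filter on low counts, 13 and 0 with the top 10 and 30% of cells, 0 with the top 20% within each sample and 8 without samples under 30 chosen cells. For Abx_4D against Ctrl (264) it was 448 without the filter, 68 with the top 20% within each sample, and 57 and 101 in sublibraries 1 to 4 and 5 to 8, which keep only 1 Abx_4D and 2 Ctrl samples, so that the lone sample is assumed to vary like the other groups. Taking the top 20% within each sample gave 205 for Abx_14D against Ctrl (700), 481 for GF against Ctrl (1175) and 75 for GF against Abx_14D (232). Sublibraries 1 to 4 gave 678 for GF (3 samples) against Ctrl (2). GF against Abx_14D had 407 calls without the filter, 103 with the top 10% of cells and 349 without samples over 0.5% mitochondrial share, which sets 1 GF against 1 Abx_14D sample. Without the filter, differences between mature and other cecal cells were 259, 529 and 736 in Abx_4D, Abx_14D and GF, the change of GF against Abx_14D in the colon 224, and its difference between cecum and colon 99. With colon cells past the cecal limit these last 2 were 207 and 20, and cecum against colon gave 1113 genes in Abx_14D and 1093 in GF. The causes were not tested.

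Leaving out 1 sample gave 108 to 206 calls for Abx_4D against Ctrl, 353 to 765 for Abx_14D against Ctrl, 618 to 1117 for GF against Ctrl, 3 to 9 for Abx_14D against Abx_4D and 139 to 264 for GF against Abx_14D. It gave 12 to 80, 121 to 341 and 200 to 549 for the differences between mature and other cells in Abx_4D, Abx_14D and GF, 84 to 117 for the colon, 3 to 30 for cecum minus colon, and 5738 to 6843 and 5073 to 5934 for cecum against colon in Abx_14D and GF. Of 6830 alternatives over 293 named results, 5667 kept direction and call, 1160 lost the call and 3 did not keep the direction. These were without samples over 0.5% mitochondrial share, again with 1 sample in GF and in Abx_14D: Slc2a1 was 0.36 and Hmgcs1 0.17 (log2, GF against Abx_14D), and 1700057G04Rik had no direction, with a log2 of 0 in GF against Ctrl. List counts of 1 against Ctrl became 0 without 1 or another sample in most lists, and those of 0 or 1 gained at most 2, other than the interferon-stimulated genes in Abx_14D.

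Same-numbered samples did not pair throughout: 4 of 16 correlations were over 0.1, with a median of -0.0158. Of 13 samples, 4 correlated best with their own number. Those numbered 4 in Abx_4D, Abx_14D and GF did go together (0.251, 0.223 and 0.19), but not with Ctrl sample 4 (-0.0367, -0.0679 and -0.0824). The share of mature cells was also higher in sample 4 than in sample 1 of each group. Correlations of Abx_4D samples 3 and 4 mirrored each other, so the check is weak there. The replicate block gave 249, 755 and 1231 calls for Abx_4D, Abx_14D and GF against Ctrl, 12 for Abx_14D against Abx_4D and 240 for GF against Abx_14D.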
